A study of Arabidopsis thaliana with 8 samples.

Results

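Ribosome footprints of Arabidopsis thaliana inflorescences were examined for 10 genes of the very-long-chain fatty acid and cuticular wax pathway. They were chosen by gene identifier and are KCS1 (AT1G01120), CER6 (AT1G68530), KCR1 (AT1G67730), PAS2 (AT5G10480), CER10 (AT3G55360), CER2 (AT4G24510), CER1 (AT1G02205), CER3 (AT5G57800), CER4 (AT4G33790) and CER5 (AT1G51500). All 10 were found among the 22384 nuclear transcripts used, 1 transcript for each gene. Each genotype had 2 libraries, and the genotypes were hot3-2, hot3-2 dcl2 dcl4, dcl2 dcl4 and wild type (WT), all in the Col-0 accession. The allele hot3-2 is a T-DNA insertion in HOT3, which encodes eIF5B1, an initiation factor needed for joining of the ribosomal subunits. The dcl2-1 and dcl4-2 alleles disrupt DICER-LIKE 2 and DICER-LIKE 4, a pair of nucleases that produce small interfering RNAs. Libraries with the hot3-2 allele, 4 in all, are referred to as hot3-2 carriers, and the 4 without it (dcl2 dcl4 and WT) as non-carriers. The labels do not say whether the 2 libraries of a genotype came from separate plants, so p-values measure the spread between libraries, which may be technical.

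Very-long-chain fatty acids are made at the endoplasmic reticulum by the fatty acid elongase complex, which adds carbon units to an acyl-CoA in a repeated cycle of condensation, reduction, dehydration and a final reduction. In the epidermis these acyl chains are turned into alkanes, alcohols, ketones and esters and are exported to the surface as cuticular wax, which limits water loss. In flowers the same pathway supplies the lipids of the pollen coat, and several eceriferum (cer) mutants of Arabidopsis have glossy stems, some with reduced male fertility.

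Nuclear coding sequences received between 1197157 and 1980798 P sites per library in hot3-2 carriers and between 2067581 and 2839839 in non-carriers, so the carriers were shallower. A P site is the nucleotide at which a ribosome holds the peptidyl-tRNA, and each footprint gives 1. HOT3 itself had 74 and 69 coding-sequence P sites in hot3-2 and 50 and 39 in hot3-2 dcl2 dcl4, against 306 and 339 in dcl2 dcl4 libraries and 284 and 370 in WT. DCL2 had 0 to 3 and DCL4 1 to 10 per library, too few to check those labels. The offset from the 5′ end of a footprint to its P site was 12 nt for 28 nt footprints in every library. For 21 nt footprints it was 9 nt in both dcl2 dcl4 libraries and replicate 1 of hot3-2 dcl2 dcl4, and 12 nt in the other 5, a difference of a whole codon that bears on the start codon counts below. Of the markers of other tissues, the summed level of 9 tapetum genes was 668 to 768 CPM in hot3-2 carriers and 1206 to 1260 in non-carriers, with 7 of the 9 lower by the test used below. Of all genes tested, 8.98% were lower in the mean effect of hot3-2, and the marker counts are to be read beside this share. CPM are P sites per 1000000 nuclear coding-sequence P sites of the library. Green tissue markers were lower in 4 of 4 genes in the mean effect of hot3-2 (median log2 -0.22), with summed levels of 13924 to 16714 CPM in carriers and 14419 to 19611 in non-carriers. Floral organ markers were lower in 2 of 6 genes tested (586 to 619 CPM in carriers, 689 to 755 in non-carriers), with AG at 0 in every library, and mature pollen markers in 1 of 4 (193 to 352 CPM in carriers, 205 to 404 in non-carriers). In whole inflorescences, fewer cells of a type and less RNA per cell cannot be told apart. PDF1, an epidermal marker, was detected in every library and did not pass the test (log2 = -0.18). A second epidermal marker, ATML1, had no coding-sequence P site in any library.

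The sequences around the annotated start codons are shown first, because the start codon counts differed widely among these genes. Each window runs from 12 nt before the ATG to the 18 nt that begin with it, with the ATG in capitals, in the TAIR10.1 reference (RefSeq), whose nuclear sequence is that of TAIR10.
CER6, chr1:25714716-25714745, minus strand: aactctccgacgATGcctcaggcaccgatg
CER1, chr1:418806-418835, plus strand: ttcgacggtataATGgccacaaaaccagga
CER3, chr5:23420577-23420606, plus strand: ccaagctaaagaATGgttgcttttttatca
KCR1, chr1:25391664-25391693, plus strand: ctttcttctctaATGgagatctgcacttac
KCS1, chr1:58961-58990, minus strand: aaaactatactgATGgagagaacaaacagc
The first of these carried the most start codon P sites, CER1 had shares in carriers that all lay above those in non-carriers, CER3 and KCR1 had none at all and KCS1 had 8. A purine stood 3 nt before the ATG in 7 of the 10 genes, against 73.9% of 20364 transcripts. An ATG occurred in the 5′ UTR of 9 of the 10, against 53.7% of all transcripts, and the 5′ UTRs ran from 65 nt in CER4 to 405 nt in CER3 beside a median of 150 nt over all. At most 0.736% of the 28 nt stretches of any of the 10 coding sequences recurred in a transcript of another gene. Shorter stretches and the 5′ UTRs were not checked, though most start codon P sites of CER6 and CER1 came from shorter footprints.

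Levels were compared between genes per length, as CPM per kb of coding sequence. CER6, the condensing enzyme of wax elongation in shoots, was densest, with 762 ± 47.0 (SD, n = 8 libraries). CER10, the enoyl-CoA reductase that closes each elongation cycle, followed with 644 ± 97.2, and the libraries of both genes overlapped. CER3, which acts with CER1 in making alkanes, had 411 ± 34.3. KCS1, another condensing enzyme, had 299.5 ± 49.5 and CER2, which helps CER6 make the longest chains, 212 ± 32.9. KCR1, the ketoacyl-CoA reductase, had 160.0 ± 19.1, and CER5 (ABCG12), a transporter that exports wax from epidermal cells, 65.7 ± 7.46. Neighbours in this order overlapped between libraries from CER3 down to KCR1, and not between CER10 and CER3 or between KCR1 and CER5. CER1, which makes alkanes with CER3, has no place in the order, because its P sites lay only in the first 507 of 1893 nt. It had 98.5 ± 13.1 over the whole coding sequence and 368 ± 48.8 over the covered stretch, where its libraries (320 to 481) overlapped those of CER3. CER4, the reductase that makes primary alcohols, had 1.92 ± 1.38 from 49 P sites in all, and PAS2, the dehydratase of the cycle, had no coding-sequence P site in any library.

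**Figure D1:**
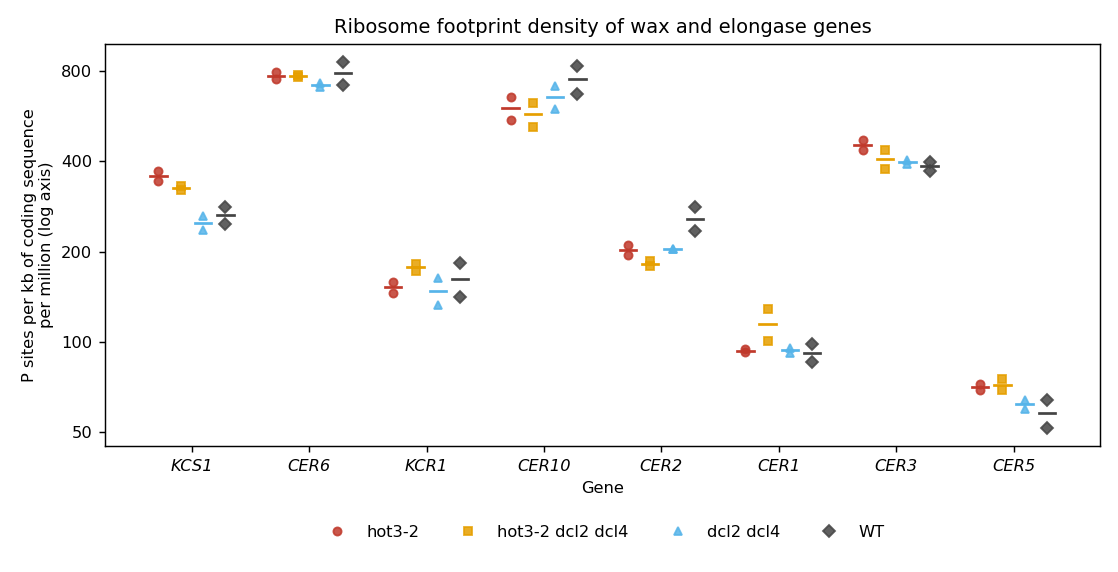
Footprint density of 8 genes (x axis) in CPM per kb of coding sequence (y axis, log scale). Each point is a library, with hot3-2, hot3-2 dcl2 dcl4, dcl2 dcl4 and WT from left to right, and each bar is the mean of the 2 libraries of a genotype. KCS1 and CER5 are the genes whose carrier points all lie above the non-carrier points, and CER1 is divided by its whole length, though only 507 of 1893 nt were covered.

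The question of the first comparison was which of these genes gained or lost footprints with hot3-2. KCS1 rose and CER10 and CER2 fell by modest amounts, and the other 6 tested genes, CER6 among them, did not pass the test. Among 9 genes tested, 1 was called higher and 2 lower in the mean effect of hot3-2 over both backgrounds, where 8.87% of the 13303 genes tested were higher and 8.98% lower (17.8% in all). The median log2 effect of the 9 was 0.05, against 0.01 over all genes. The adjusted p-values are from limma voom with Benjamini-Hochberg adjustment over all genes tested.

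KCS1 (chr1:57164-59215, minus strand, 1 exon, 528 codons) makes very-long-chain acyl precursors of wax in stems and leaves. It had 591 and 545 CPM in hot3-2 and 525 and 510 in hot3-2 dcl2 dcl4, against 374 and 417 in dcl2 dcl4 libraries and 447 and 393 in WT. All 4 carriers were higher than all 4 non-carriers. The mean effect was a log2 fold change of 0.37 ± 0.07 (SE, adjusted p = 9.0e-06). It was 0.42 ± 0.09 for hot3-2 over WT (adjusted p = 0.00024) and 0.33 ± 0.10 for hot3-2 dcl2 dcl4 over dcl2 dcl4 (adjusted p = 0.024). The mean effect stayed between 0.31 and 0.42 and past the threshold under all 15 alternatives. The rise over dcl2 dcl4 alone was lost without any 1 of the 4 libraries of that contrast, with adjusted p between 0.070 and 0.39, and also with no filter on low counts (0.30, adjusted p = 0.12) and with 28 nt footprints only (0.36, adjusted p = 0.11). Much of the KCS1 signal came from few codons, and codon 382 held 1446 of its 7248 P sites. This codon is capitalised in the footprint window chr1:57820-57847, minus strand: atcacgactttaGGAccgatggttcttc. Without that codon the carriers had 432 ± 5.08 CPM and the non-carriers 330 ± 27.4 (SD, n = 4 each). Without the 5 most occupied codons the carriers had 262 ± 9.98 CPM and the non-carriers 221 ± 23.2, and the ratio of carriers to non-carriers was 1.18 in place of 1.33. Of 3 equal segments of the coding sequence the last differed most, with 325 ± 24.4 CPM in carriers and 220 ± 12.4 in non-carriers, while the first had 173 ± 11.05 in carriers and 150 ± 22.5 in non-carriers.

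CER6 (KCS6, chr1:25712414-25715024, minus strand, 2 exons, 497 codons), whose loss leaves Arabidopsis stems nearly waxless and pollen poorly coated, showed the smallest effect of the 9 genes. It had 1181 and 1127 CPM in hot3-2 and 1143 and 1159 in hot3-2 dcl2 dcl4, against 1060 and 1086 in dcl2 dcl4 libraries and 1277 and 1075 in WT. The carriers lay within the range of the non-carriers, and the mean effect was -0.003 ± 0.05 (adjusted p = 0.98). KCR1 had 139 and 152 CPM in hot3-2 and 165 and 174 in hot3-2 dcl2 dcl4, against 127 and 156 in dcl2 dcl4 libraries and 135 and 176 in WT. The groups overlapped, with a mean effect of 0.05 ± 0.10 (adjusted p = 0.80).

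CER10 (chr3:20520930-20523098, minus strand, 4 exons, 310 codons) had 510 and 609 CPM in hot3-2 and 486 and 583 in hot3-2 dcl2 dcl4, against 559 and 664 in dcl2 dcl4 libraries and 773 and 625 in WT. The groups overlapped, and within each background the mean of the carriers was lower. The mean effect was -0.31 ± 0.07 (adjusted p = 0.00046), with -0.36 ± 0.09 for hot3-2 over WT (adjusted p = 0.0024) and -0.25 ± 0.11 for hot3-2 dcl2 dcl4 over dcl2 dcl4 (adjusted p = 0.15). The fall over WT was lost without WT replicate 1 (-0.19, adjusted p = 0.26) or without hot3-2 replicate 1 (-0.20, adjusted p = 0.33), while the mean effect passed under all 15 alternatives. The difference lay in the middle of 3 equal segments, codons 104 to 206, with 286 ± 33.3 CPM in carriers and 398 ± 73.4 in non-carriers (SD, n = 4 each). The first segment had 184 ± 17.9 in carriers and 187 ± 31.4 in non-carriers, and the last had 77.6 ± 11.6 in carriers and 69.96 ± 18.8 in non-carriers. Within that middle segment, the neighbouring codons 132 and 133 held 1125 and 1244 of the 9676 P sites. Codon 132 took 4.65% to 10.6% of the CER10 P sites of a carrier library and 9.25% to 17.6% of those of a non-carrier library. Without both codons the carriers had 442 ± 41.9 CPM and the non-carriers 481 ± 50.8, so that the ratio moved to 0.918 from 0.835. The window with codon 133 in capitals is chr3:20521799-20521826, minus strand: ccggtccagacgTACgctatgtactact.

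CER2 (chr4:12660687-12662656, plus strand, 2 exons, 421 codons) had 246 and 266 CPM in hot3-2 and 235 and 226 in hot3-2 dcl2 dcl4, against 259 and 258 in dcl2 dcl4 libraries and 356 and 296 in WT. WT stood highest, and hot3-2 replicate 2 was above both dcl2 dcl4 libraries. The mean effect was -0.30 ± 0.08 (adjusted p = 0.0057), with -0.38 ± 0.11 for hot3-2 over WT (adjusted p = 0.0094) and -0.22 ± 0.13 for hot3-2 dcl2 dcl4 over dcl2 dcl4 (adjusted p = 0.36). CER2 was also the only one of the 9 genes called in dcl2 dcl4 against WT, where 5.43% of genes were called and 3.12% were lower (-0.33 ± 0.10, adjusted p = 0.049), and that call was lost in 11 of 15 alternatives. In the same comparison 4 of 4 mature pollen markers were lower (median log2 -1.24), and their part in the CER2 value was not tested. The mean effect missed the threshold without hot3-2 replicate 1 (-0.26, adjusted p = 0.051) and with 28 nt footprints only (-0.18, adjusted p = 0.33). The value over WT missed it with 28 nt footprints only (-0.21, adjusted p = 0.39), without WT replicate 1 (-0.23, adjusted p = 0.29) and without hot3-2 replicate 1 (-0.29, adjusted p = 0.22). All 3 segments of equal length of the CER2 coding sequence were lower in carriers, at 0.797, 0.736 and 0.871 of the non-carriers. Codons 343 and 345 were the most occupied, and the window of codon 345 is chr4:12662292-12662319, plus strand: ggctcttcggatTTTttcacgtacggtg.

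**Figure D2:**
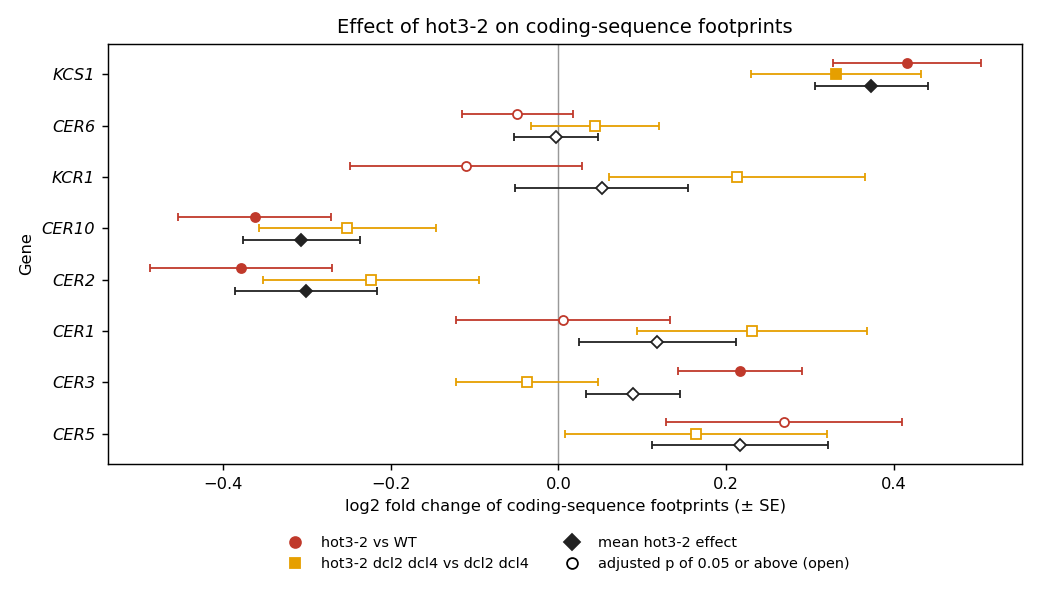
Log2 fold change of coding-sequence footprints (x axis, with the standard error as bars) for 8 genes (y axis), for hot3-2 over WT, hot3-2 dcl2 dcl4 over dcl2 dcl4 and the mean of both. Filled points have an adjusted p under 0.05. KCS1 lies to the right of 0 at 0.37 in the mean effect, and CER10 and CER2 lie to the left at -0.31 and -0.30.

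The alkane-forming pair and the exporter gave smaller differences. CER3 had 895 and 827 CPM in hot3-2 and 827 and 714 in hot3-2 dcl2 dcl4, against 769 and 744 in dcl2 dcl4 libraries and 756 and 704 in WT. It passed the test for hot3-2 over WT (0.22 ± 0.07, adjusted p = 0.035), where 7.34% of genes were higher and 7.1% lower (14.4% in all), but not in the mean effect (0.09 ± 0.06, adjusted p = 0.30). The call over WT was lost in 5 of 15 alternatives. These were no filter on low counts (0.20, adjusted p = 0.060), limma trend (0.21, adjusted p = 0.13), 28 nt footprints only (0.20, adjusted p = 0.18), and leaving out WT replicate 2 (0.16, adjusted p = 0.23) or hot3-2 replicate 1 (0.18, adjusted p = 0.30). CER1 had 176 and 179 CPM in hot3-2 and 190 and 244 in hot3-2 dcl2 dcl4, against 181 and 173 in dcl2 dcl4 libraries and 162 and 186 in WT (mean effect 0.12 ± 0.09, adjusted p = 0.44). CER5 had 149 and 143 CPM in hot3-2 and 143 and 155 in hot3-2 dcl2 dcl4, against 123 and 132 in dcl2 dcl4 libraries and 132 and 107 in WT. All 4 carriers were above all 4 non-carriers for CER5, yet the mean effect of 0.22 ± 0.11 missed the threshold (adjusted p = 0.16). No gene of the 9 was called in the interaction of hot3-2 with dcl2 dcl4, where 1.1% of all genes were. The genes at an unadjusted p under 0.05 in that interaction numbered 1311 of all tested and included CER3 (unadjusted p = 0.027). In hot3-2 dcl2 dcl4 over dcl2 dcl4, KCS1 was the only call, where 4.3% of genes were higher and 4.62% lower (8.92% in all). The comparisons with WT share its libraries, as those with dcl2 dcl4 do.

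Footprints were unevenly spread along these coding sequences, and 3 genes were covered in part. CER1 (chr1:418748-422258, plus strand, 10 exons) had P sites from position -38 to position 505 of a coding sequence of 1893 nt, counted from the first base of the ATG as 0, and none after it. CER4 had 49 P sites, all between positions 6 and 79 of 1482 nt, with 2 to 3 per carrier library and 3 to 18 per non-carrier library, and its mean effect of -1.10 ± 0.79 (adjusted p = 0.38) rests on these. The level of CER1 is therefore that of the first 169 of its 631 codons, the stop codon included. In the other genes P sites touched 38.2% of the codons in CER5 and 71.1% in CER6. KCR1 had 510 of its 2368 P sites on codon 98, which held 20.2% to 25.9% of the gene in carriers and 16.6% to 22.9% in non-carriers. Codon 465 of CER6 held 1892 of 17864, with 8.99% to 11.5% in carriers and 9.06% to 11.6% in non-carriers. Both codons were thus heavily occupied in every library, and the plot of P sites along each coding sequence shows them in both groups. The annotation lists 5 isoforms of CER1, 2 of CER4, 3 of PAS2, 2 of CER6 and 1 of each other gene. Counts are those of the 1 transcript used for each gene, and footprints on other isoforms were not seen. What limits coverage to part of a transcript was not tested.

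**Figure D3:**
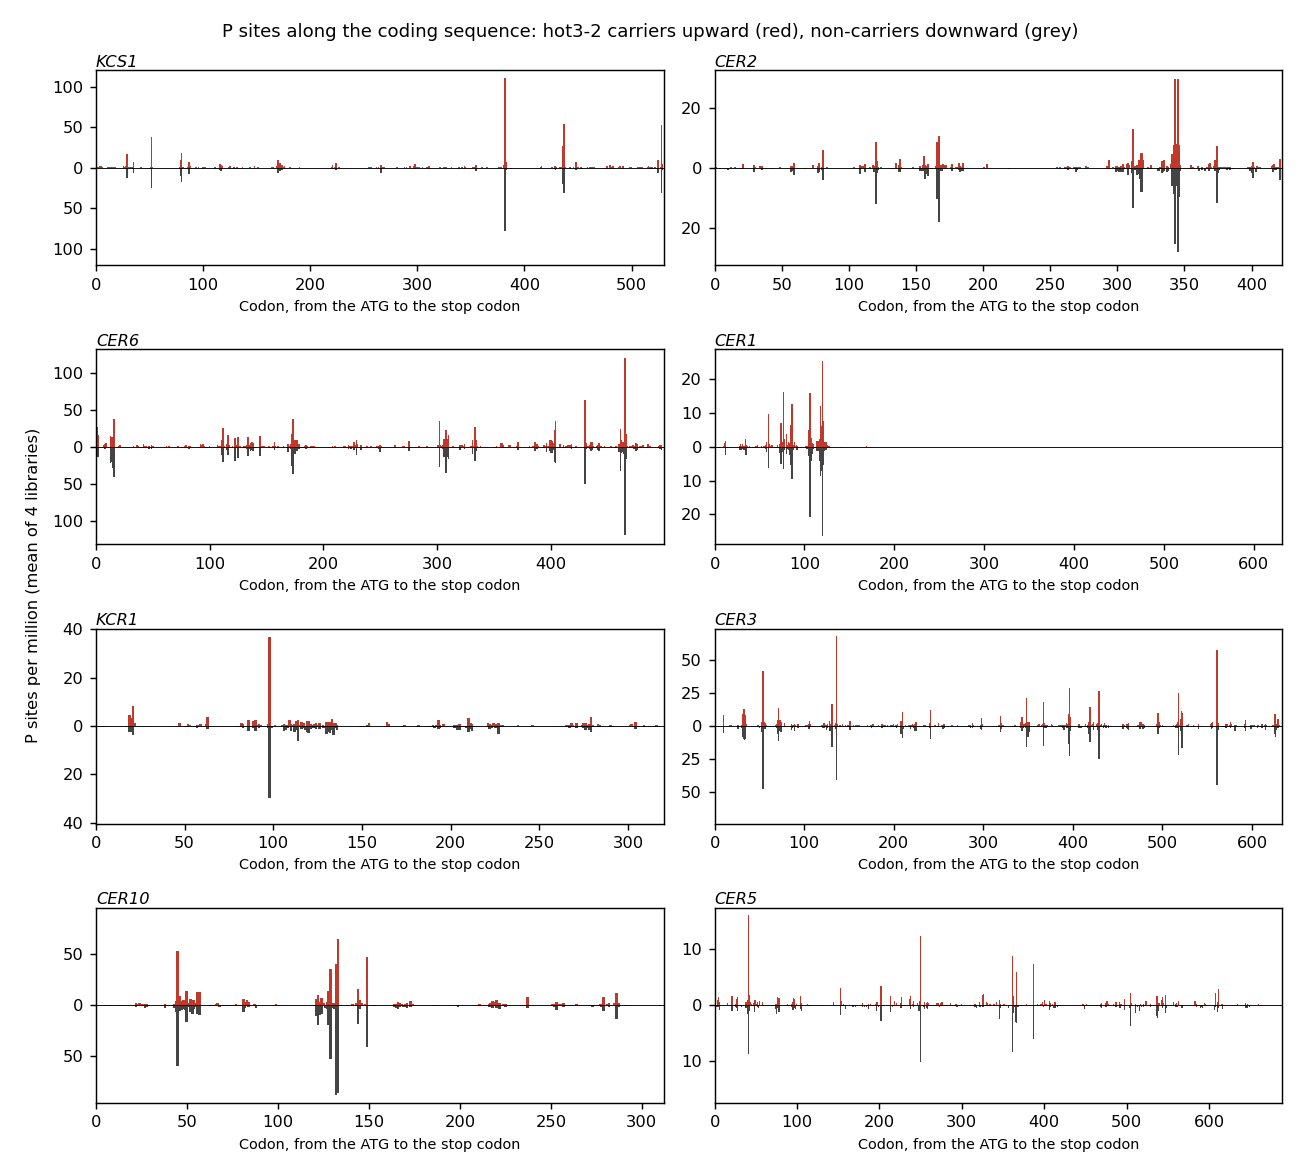
Mean CPM (y axis) at each codon (x axis) of 8 genes, with the 4 hot3-2 carriers drawn upward and the 4 non-carriers downward from 0. Codon 382 of KCS1, codon 98 of KCR1 and codon 465 of CER6 stand out in both groups, CER1 has none after codon 169, and codons 132 and 133 of CER10 are higher in non-carriers.

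PAS2 (chr5:3297806-3300151, minus strand, 10 exons) had footprints only in the 5′ UTR of the transcript used. All 646 of its footprints had P sites between positions -49 and -2, and 507 were at position -38. An upstream ATG at position -92 opens a reading frame of 22 codons whose stop codon ends at position -24 and which is not in frame with the PAS2 coding sequence. Of the 646 footprints, 640 lay inside that frame, 589 of them (92.0%) in its frame 0, and position -38 is the first base of its codon 19. The footprint window, with codon 19 in capitals, is chr5:3300071-3300098, minus strand: tcttcttctgggTGTtcaaagaattagt. The libraries held 106 and 51 such footprints in hot3-2 and 36 and 30 in hot3-2 dcl2 dcl4, against 95 and 121 in dcl2 dcl4 libraries and 95 and 112 in WT. As CPM this was 35.1 ± 12.9 in carriers and 44.6 ± 9.24 in non-carriers (SD, n = 4 each), and the groups overlapped. Upstream reading frames of the other genes held few P sites, with 2 in CER3, 2 in KCR1 and 1 in CER2. The 13 in CER1 included 11 on the codon just 5′ of its ATG, 9 of them in hot3-2 dcl2 dcl4 replicate 1, a library with the shorter offset.

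The second comparison asked whether ribosomes stood on the start codons of these genes more often with hot3-2. The start codon share is the percentage of a gene's coding-sequence P sites that lie on the annotated ATG. Over all other genes it was 2.29% to 3.75% in hot3-2 carriers and 0.534% to 0.755% in non-carriers, and summed over the 10 genes it was 0.607% to 1.14% in carriers and 0.0254% to 0.766% in non-carriers. Without CER6 the sum over the remaining genes was 0.120% to 0.420% in carriers and at most 0.0382% in non-carriers. CER6 was left out here after its values were seen. The pooled share of all other genes is not that of a typical gene. Among 2968 genes with at least 1000 coding-sequence P sites over all libraries, the median share was 0.442% in carriers and 0.0768% in non-carriers, and 33.4% had no start codon P site in any carrier. The carrier share of CER1 was above that of 76.9% of these genes, that of CER6 above 75.7%, CER5 above 50.3%, KCS1 above 42.1%, CER2 above 38.3% and CER10 above 36.2%. The CER1 share is taken over P sites in the first 507 of 1893 nt only, so its place among these genes is not comparable. Intervals and limits given for shares cover counting error only.

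CER3 and KCR1 had no P site on the ATG in any library. For CER3 this was 0 of 4939 coding-sequence P sites in carriers, which allows a share of up to 0.0607%, and 0 of 7172 in non-carriers, up to 0.0418%. For KCR1 it was 0 of 929 in carriers, which allows up to 0.323%, and 0 of 1439 in non-carriers, up to 0.208%. They were thus among the 33.4% of genes with none in carriers. CER2 had 2 start codon P sites, both in hot3-2 dcl2 dcl4 replicate 2, CER10 had 3, all in carriers, and CER5 had 4 in hot3-2 replicate 1 and 1 in dcl2 dcl4 replicate 1. KCS1 had 1 and 0 in hot3-2 and 4 and 2 in hot3-2 dcl2 dcl4, against 0 and 0 in dcl2 dcl4 libraries and 1 and 0 in WT.

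CER1 had 12 and 5 start codon P sites in hot3-2 and 2 and 10 in hot3-2 dcl2 dcl4, against 0 and 1 in dcl2 dcl4 libraries and 2 and 0 in WT. Its share was 3.45% and 1.83% in hot3-2 and 0.877% and 3.21% in hot3-2 dcl2 dcl4, against 0% and 0.267% in dcl2 dcl4 libraries and 0.434% and 0% in WT. All 4 carriers were higher than all 4 non-carriers. The summed share was 2.50% in carriers (Wilson 95% interval 1.74% to 3.56%) and 0.177% in non-carriers (0.0603% to 0.520%). A quasi-binomial model fitted over 2096 genes, with dispersions moderated by limma, included CER1, CER6 and KCS1. Genes needed a mean of 1 start codon P site per library, which CER1 (29 in carriers and 3 in non-carriers) and KCS1 reached only through the carriers. The same filter shaped the background, in which 53.8% of genes were called in the mean effect and 53.7% were higher, so nothing is read from these counts. Because of that filter, the model values of CER1 are given as description and not as support for a difference. CER1 had a mean log2 odds ratio of 3.50 ± 1.16 (SE, adjusted p = 0.0050). The ratio was 3.45 ± 1.42 for hot3-2 over WT (adjusted p = 0.028, beside 36.8% called higher) and 3.56 ± 1.82 for hot3-2 dcl2 dcl4 over dcl2 dcl4 (adjusted p = 0.067, beside 28.1% called in either direction). Over the 8 libraries the share differed by 2.17 percentage points (two-sided p = 0.0286 by exact permutation of libraries, which cannot go lower). The separation behind this p rests on few counts. The lowest carrier, hot3-2 dcl2 dcl4 replicate 1, and the highest non-carrier, WT replicate 1, held 2 start codon P sites each. Their Wilson 95% intervals overlapped (0.241% to 3.14% and 0.119% to 1.57%). Permutation p-values, here and below, are not adjusted for the number of genes or ways of counting. The mean effect missed the threshold without hot3-2 dcl2 dcl4 replicate 2 (2.95, adjusted p = 0.069). The ratio over WT missed it without WT replicate 1, WT replicate 2 or hot3-2 replicate 1 (2.41 to 4.80, adjusted p between 0.085 and 0.19). Of the 29 start codon P sites in carriers, 23 came from footprints under 26 nt. With 28 nt footprints only, CER1 had 0 and 3 in hot3-2 and 2 and 1 in hot3-2 dcl2 dcl4, against none in non-carriers (two-sided p = 0.143 by exact permutation of libraries).

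CER6 had the most start codon P sites, with 55 and 48 in hot3-2 and 19 and 41 in hot3-2 dcl2 dcl4, against 6 and 1 in dcl2 dcl4 libraries and 85 and 46 in WT. Its share was 2.35% and 2.79% in hot3-2 and 1.39% and 2.77% in hot3-2 dcl2 dcl4, against 0.274% and 0.0426% in dcl2 dcl4 libraries and 2.34% and 1.65% in WT. WT therefore stood with the carriers and dcl2 dcl4 apart. The mean log2 odds ratio was 2.02 ± 0.48 (SE, adjusted p = 0.00068), made up of 0.32 ± 0.31 for hot3-2 over WT (adjusted p = 0.41) and 3.71 ± 0.90 for hot3-2 dcl2 dcl4 over dcl2 dcl4 (adjusted p = 0.0013). The value over dcl2 dcl4, and with it the mean, compares unlike offsets. Replicate 2 of hot3-2 dcl2 dcl4 had the 12 nt offset and both dcl2 dcl4 libraries the shorter one. Neither value is therefore read as an effect of hot3-2. For dcl2 dcl4 over WT the log2 odds ratio was -3.66 ± 0.87 (adjusted p = 0.011), where 0.62% of genes were called and 0.334% were lower. That call was lost without any 1 of the libraries of dcl2 dcl4, WT or hot3-2 (-5.04 to -2.82, adjusted p between 0.059 and 0.37). The interaction was not called (adjusted p = 0.34), where 0.0477% of genes were. Over the libraries the share differed by 1.25 percentage points (two-sided p = 0.114 by exact permutation of libraries).

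These CER6 counts moved with how short footprints were placed. All of the 85 and 46 start codon P sites in WT came from footprints under 26 nt, most often 21 nt. In the 3 libraries with the shorter offset, the codon just 5′ of the ATG held 52 P sites in hot3-2 dcl2 dcl4 replicate 1 and 25 and 19 in dcl2 dcl4, against 0 to 6 in the other 5 libraries. With that codon counted too, CER6 had a share of 3.38% ± 1.14 in carriers and 1.60% ± 0.651 in non-carriers (SD, n = 4 each), with 3 of 4 carriers above all non-carriers (two-sided p = 0.0571 by exact permutation of libraries). The value for dcl2 dcl4 over WT was then -0.94 (adjusted p = 0.23). Within the 5 libraries with the 12 nt offset, the deposited P sites gave 2.64% in 3 carriers and 2.00% in 2 non-carriers, and within the other 3 libraries 1.39% in 1 carrier and 0.158% in 2 non-carriers. With footprints of 26 to 29 nt at fixed offsets, CER6 had 3 and 2 start codon P sites in hot3-2 and 6 and 2 in hot3-2 dcl2 dcl4, against none in non-carriers, so that the share was 0.250% ± 0.194 in carriers and 0% in non-carriers (two-sided p = 0.0286 by exact permutation of libraries). The carrier mean of CER6 was thus higher in each way of counting, by 0.154 to 1.78 percentage points, while WT stood beside dcl2 dcl4 at 0% once short footprints were left out.

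**Figure D4:**
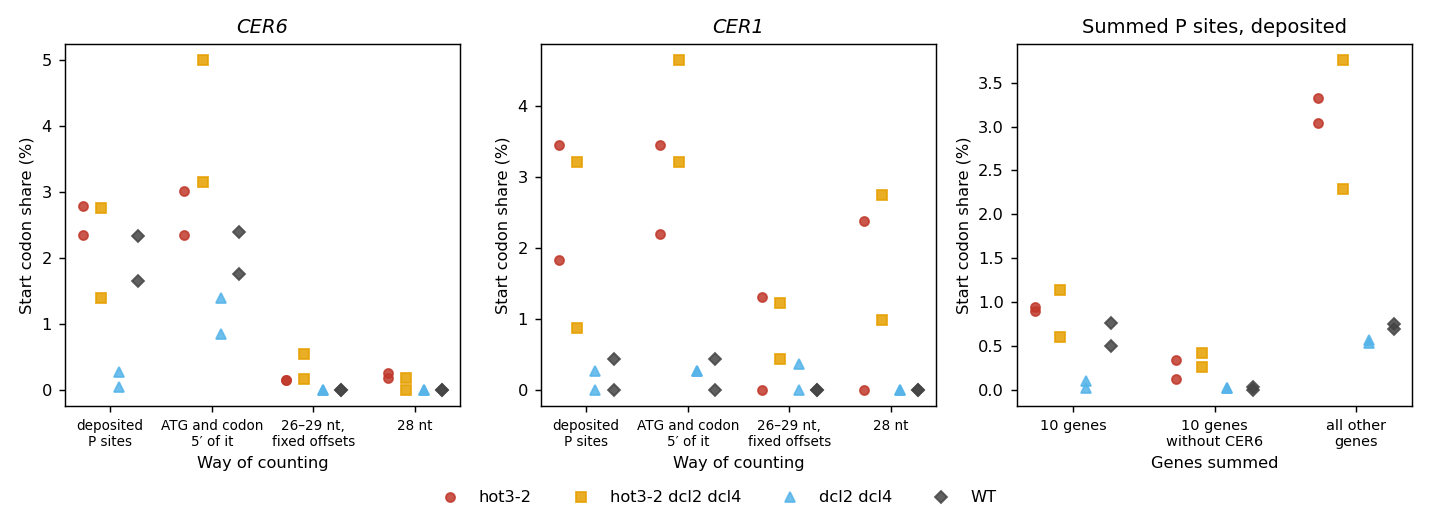
Start codon share in percent (y axis) of CER6 and CER1 under 4 ways of counting, and of summed P sites (right). Each point is a library, with hot3-2, hot3-2 dcl2 dcl4, dcl2 dcl4 and WT from left to right. WT stands near the carriers in CER6 with the deposited P sites and at 0% with 28 nt footprints, and the 10 genes together stay below all other genes in the carriers.

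Other genes of the pathway were counted from lists that leave out the 10. Of 22 further elongase genes, 21 were tested and 4 fell and none rose in the mean effect of hot3-2, with a median log2 of -0.20 against 0.01 over all genes, where 8.98% of genes were lower and 8.87% higher. The 4 are condensing enzymes of the family of KCS1 and CER6, as are all genes of that list except KCR2, ACC1 and PAS1. KCS12 had 138 and 112 CPM in hot3-2 and 150 and 140 in hot3-2 dcl2 dcl4, against 266 and 230 in dcl2 dcl4 libraries and 271 and 233 in WT (-0.92 ± 0.10, adjusted p = 3.5e-12). KCS15 had 11.8 to 15.0 CPM in carriers and 27.8 to 37.0 in non-carriers (-1.22 ± 0.26, adjusted p = 0.00018). KCS17 fell by 0.67 on the log2 scale (adjusted p = 0.045) and KCS10 (FIDDLEHEAD), whose loss lets floral organs fuse, by 0.18 (adjusted p = 0.024), though its groups overlapped.

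Over all genes 17.8% were called, 8.87% higher and 8.98% lower, and the counts of the wax, cutin and regulator lists are to be read beside these shares. Of 16 further wax genes, 13 were tested, 3 fell and 1 rose. MAH1, the midchain hydroxylase that turns alkanes into secondary alcohols and ketones in stem wax, had 539 and 490 CPM in hot3-2 and 540 and 551 in hot3-2 dcl2 dcl4, against 904 and 802 in dcl2 dcl4 libraries and 780 and 852 in WT (-0.69 ± 0.06, adjusted p = 8.2e-16). CER2-LIKE2, a relative of CER2, had 66.5 to 82.7 CPM in carriers and 111 to 137 in non-carriers (-0.79 ± 0.13, adjusted p = 4.7e-07). LTPG1, a lipid transfer protein of wax export, fell by 0.30 on the log2 scale (adjusted p = 0.017). CER26, another relative of CER2, was called higher (1.89 ± 0.63, adjusted p = 0.025) with 9.19 to 18.8 CPM in carriers, against 0 and 3.23 in dcl2 dcl4 libraries and 13.4 and 12.4 in WT, so that call rested on dcl2 dcl4. Of 15 cutin genes, all tested, 3 rose and 2 fell. DCR, an acyltransferase of cutin formation in flowers, had 814 to 882 CPM in carriers and 1093 to 1224 in non-carriers (-0.53 ± 0.05, adjusted p = 3.3e-14). GPAT8 fell by 0.31 on the log2 scale (adjusted p = 0.048), though its groups overlapped. It had 104 to 120 CPM in carriers, against 115 and 119 in dcl2 dcl4 libraries and 132 and 173 in WT. GPAT4 and GPAT6, acyltransferases like GPAT8, and LTL1, a lipase, rose by 0.13 to 0.28 on the log2 scale (adjusted p between 0.0027 and 0.035), though the groups of each overlapped. LTL1 had 0.25 over WT and 0.01 over dcl2 dcl4, GPAT6 had 0.02 and 0.32, and GPAT4 had 0.13 and 0.43 in the same order. Of 10 regulators, 8 were tested and 1 rose, DEWAX, a repressor of wax genes (0.56 ± 0.16, adjusted p = 0.0055), with 1.01 for hot3-2 over WT and 0.10 for hot3-2 dcl2 dcl4 over dcl2 dcl4. Its groups overlapped in scaled log2 CPM, with 5.86 to 6.26 in carriers. The dcl2 dcl4 libraries had 5.90 and 5.83 and those of WT 5.26 and 4.92, so that call rested on WT. The 9 tapetum markers, of which 7 fell in carriers, had a median log2 of -0.78, and their part in the falls of these list genes was not tested.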

How the data were processed

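Ribosome footprints were sequenced from inflorescences of 4 genotypes, 2 libraries each, grouped by the labels. According to the study's methods the authors trimmed reads, mapped them with STAR to TAIR10 and placed P sites with RiboTaper. For finding reading frames, its stated options were footprints of 26 to 29 nt at offsets of 10 to 13 nt. The fixed offsets used here as an alternative are those options. The deposited positions also hold shorter footprints, and 26 nt footprints were at 12 nt in WT and 10 nt in dcl2 dcl4. Removal of duplicates and treatment of reads with several places are not given for footprints in the sources used here. Each line of the deposited files is a footprint with its transcript and its positions in nt, without normalisation, and counts were tallied from these deposited positions.

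P sites on the coding sequence were counted per transcript. The voom method of limma (version 3.58.1 under R 4.3.3) was fitted to the 8 libraries together, with a coefficient per genotype and TMM scaling. Genes needed 10 counts, relative to the median library, in 2 libraries and 15 in all. The mean effect of hot3-2 averages both backgrounds. Start codon P sites were tested by a quasi-binomial model with dispersions moderated by limma, over genes with a mean of 50 coding-sequence and 1 start codon P sites, adding 0.5 to each genotype's sums for the log2 odds ratio. An adjusted p under 0.05 was a call. Single shares were compared by exact permutation over 70 assignments of libraries with scipy 1.17.1, which also gave Wilson intervals. A count of 0 allows 3 counts. The fits across genes were tested on simulated data. The simulation held no difference in P site offsets between libraries, so it does not cover their effect on start codon counts.

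The 10 genes, the lists and the tests were chosen with earlier results of these data known. Named genes are the 10, and of the lists those called in the mean effect whose carriers all lie on one side of the non-carriers in scaled log2 CPM. KCS10, CER26, GPAT4, GPAT6, GPAT8, LTL1 and DEWAX were named after their values were seen. Same-genotype libraries differed by more than sampling noise (chi-square per degree of freedom 2.10 to 2.91). Alternatives were other scaling, no filter, limma trend, 28 nt footprints, leaving out the first 10 codons, other start windows and offsets, a replicate block and leaving out each library. Leaving out the most occupied codon was added after seeing the data.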

Additional observations from a re-analysis of the deposited data

Results flagged for a closer look

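Of 22 sets of 4 libraries examined for a library that stands apart, 2 were singled out, about the number that chance gives at 1 in 20. CER6 had 1277 CPM in WT replicate 1, against 1060 to 1086 in the other 3 non-carriers, a gap of 0.880 of the whole range. KCS1 had its only non-carrier start codon P site in WT replicate 1, a share of 0.0789% with 0% in the other 3, so that the gap was 1 of the range and rested on 1 footprint.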

How the results depend on the processing

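Among the called effects on coding-sequence footprints, those of KCS1 and CER10 averaged over both backgrounds kept their direction and call under all 15 alternatives, and the CER2 effect under 13. None of these left out codons 132 and 133 of CER10 together. Without both, the ratio of carriers to non-carriers was 0.918, and the call was not tested. Effects near 0 changed sign without a call. With 28 nt footprints only, CER6 had 0.075 in the mean effect and 0.034 over WT, and KCR1 -0.039 in the mean effect. Without the first 10 codons, CER6 had 0.017, and CER3 0.0050 in hot3-2 dcl2 dcl4 over dcl2 dcl4. Without the most occupied codon, CER6 had 0.030. With no filter on low counts, CER1 had -0.011 over WT. Leaving out each library in turn, the mean effect ranged from -0.080 to 0.057 for CER6 and from -0.050 to 0.13 for KCR1, the effect over WT from -0.079 to 0.092 for CER1, -0.18 to 0.095 for CER6 and -0.29 to 0.066 for KCR1, and the CER3 effect over dcl2 dcl4 from -0.14 to 0.078. The cause was not tested.

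The number of genes called in coding-sequence footprints fell with 28 nt footprints only, for which fewer genes were tested, to 1358 for the mean effect of hot3-2, 1149 for hot3-2 over WT, 508 for hot3-2 dcl2 dcl4 over dcl2 dcl4, 372 for dcl2 dcl4 over WT and 71 for the interaction. It was 397 for dcl2 dcl4 over WT with limma trend and 66 for the interaction without the most occupied codon. Leaving out each library gave 1251 to 1877 over WT, 657 to 1261 over dcl2 dcl4, 233 to 785 for dcl2 dcl4 over WT and 92 to 162 for the interaction.

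For the start codon share, 28 nt footprints, with 730 genes tested in place of 2096, gave 406 calls for the mean effect, 324 over WT, 272 over dcl2 dcl4 and 8 for dcl2 dcl4 over WT. The ATG with the codon 5′ of it gave 900 over dcl2 dcl4, 37 for dcl2 dcl4 over WT and 5 for the interaction. At fixed offsets the CER6 start codon held none in both dcl2 dcl4 and WT, so that comparison has no value. Leaving out each library gave 699 to 1201, 307 to 934, 199 to 783, 0 to 36 and 0 to 11 calls, in the order mean effect, over WT, over dcl2 dcl4, dcl2 dcl4 over WT and interaction. The difference of CER1 between carriers and non-carriers was 1.53 points with 28 nt footprints, 0.655 with fixed offsets, 0.744 within the libraries with the shorter offsets and 1.80 to 2.65 leaving out each library. That of CER6 was 0.250 with fixed offsets, and that of KCS1 0.636 within the libraries with the shorter offsets and 0.111 to 0.323 leaving out each library.

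Replicate numbers did not pair the libraries, since the deviations of replicate 1 correlated between genotypes by -0.0186 to 0.0115. With a replicate block, coding-sequence calls were 2446 for the mean effect, and start codon calls were 54 for dcl2 dcl4 over WT and 16 for the interaction. The block took the CER2 call for dcl2 dcl4 over WT (adjusted p = 0.053) and called the CER6 interaction of the start codon share (3.39, adjusted p = 0.0068).

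With 2 libraries a genotype and fewer than 30 start codon P sites in most of these genes, small differences of the start codon share were not detectable at this depth. Levels of CER1 and CER4, and the start codon share of CER1, rest on part of the transcript. No RNA-seq was used here, so a change in footprints and a change in mRNA cannot be told apart.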
